A study of Drosophila melanogaster with 2 samples.

Results

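The genes described are 32 muscle genes of Drosophila melanogaster, chosen by name as genes of the sarcomere, of myoblast fusion and of mesoderm regulation, out of 13968 protein-coding genes in the annotation. They comprise 21 structural genes, 5 fusion genes and 6 regulators. What was measured at them is where CG30431, a zinc-finger protein, sat on chromatin. Fly embryos of mixed sex, collected over 0 to 24 h, came from a stable line in which CG30431 carries GFP at its C-terminus, and an antibody against GFP precipitated the chromatin. The series holds 1 group of 2 biological replicates, both from the same transgenic line, with no second genotype, treatment or stage. The promoter that drives the transgene is not given in the sources used here. The embryos were whole, so sites in muscle cells and in the cells of other tissues cannot be told apart.

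Muscle in the fly embryo forms when founder cells fuse with fusion-competent myoblasts. The founders carry the adhesion proteins Kirre and Rst, the fusion-competent cells carry Sns, and contact leads through the adaptor Rols and the Rac activator Mbc to remodelling of actin. Mef2, Nau (the fly MyoD relative), Tin, Bap and Lmd are transcription factors that set mesoderm and muscle fates, and How is an RNA-binding protein needed for muscle attachment. The structural genes encode myosin, actins, tropomyosins, troponins, giant titin-like proteins and proteins of the Z-disc and thick filament.

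A site below is an entry of the deposited reproducible peak list on genome build dm6, placed by its summit, the base at which the authors' caller put the top of the peak. The list holds 3314 entries with signal values, on the authors' own scale, from 70.8 to 1800 and a median of 121. It is exactly the strongest part of the pooled list, which like the list of each replicate holds 30000 entries, background included. No read counts were used here, so the depth of each replicate is unknown. With 1 group there is no test between conditions, and genes are not replicates of a condition, so counts are given beside the share of all protein-coding genes. Exact binomial intervals cover only the number of genes or sites counted.

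CG30431-GFP sites were found at 12 of the 32 muscle genes: 5 structural genes, 3 fusion genes and 4 regulators. Of the 32, 6 had a reproducible summit at most 500 bp from a start, which is 18.8% (95% interval 7.21 to 36.4), against 12.8% of all protein-coding genes. A summit lay in the gene body in 9 of 32 (28.1%, interval 13.7 to 46.7), against 8.86% of all protein-coding genes. Together 12 of 32 genes had a site at a start or in the body (37.5%, interval 21.1 to 56.3), where 17.2% of all protein-coding genes did. These 12 genes hold 33 sites, of which 16 lie in kirre. Of the 33, 11 lay nearest to a start of a gene that is not among the 32. The muscle genes are long (median 13.4 kb, against 2.16 kb over all protein-coding genes) and have more starts (median of 2 against 1). Among genes with at least 2 starts a site lay at a start in 3 of 19 muscle genes (15.8%, interval 3.38 to 39.6), against 22.4% of all such genes. Among genes with 1 start it was 3 of 13 (23.1%, interval 5.04 to 53.8), against 9.32%. The muscle genes thus lay below the background share in one split and above it in the other, and both intervals include the background.

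The sequences around 6 of these sites are shown as examples from among the stronger sites of each class: 2 intron sites of mbc, the strongest kirre site and the strongest of the 3 kirre sites in CG32795, and the upstream sites of sls and tin. Some sites not shown are stronger than the weaker mbc intron site (174 pooled): upstream of mbc (281), in Mef2 (197) and in kirre (175). Each sequence shown is the plus strand of dm6, 100 bp on each side of the summit, from the RefSeq genome of that build. Capitals mark CACTG, or CAGTG where it lies on the minus strand, a short sequence counted here because it was already known to be frequent at the sites of this series. The mbc windows are chr3R:23782844-23783044 and chr3R:23784118-23784318, both in an intron. The kirre windows are chrX:3097133-3097333 and chrX:2787241-2787441, also intronic. The sls window is chr3L:2115787-2115987 and the tin window chr3R:21378669-21378869, both between genes and upstream of the start.
mbc intron, strongest: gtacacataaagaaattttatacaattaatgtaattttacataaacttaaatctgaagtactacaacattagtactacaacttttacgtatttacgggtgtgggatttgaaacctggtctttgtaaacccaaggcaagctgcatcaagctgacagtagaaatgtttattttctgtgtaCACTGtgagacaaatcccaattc
mbc intron, further into the gene: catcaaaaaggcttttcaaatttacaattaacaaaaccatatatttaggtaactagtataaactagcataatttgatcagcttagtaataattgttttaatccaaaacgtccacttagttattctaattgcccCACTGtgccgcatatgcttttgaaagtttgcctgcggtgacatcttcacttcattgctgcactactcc
kirre intron, strongest: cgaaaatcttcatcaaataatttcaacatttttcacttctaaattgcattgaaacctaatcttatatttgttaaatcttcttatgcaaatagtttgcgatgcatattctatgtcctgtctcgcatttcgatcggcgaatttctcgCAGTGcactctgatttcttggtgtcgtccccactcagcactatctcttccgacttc
kirre intron, within CG32795: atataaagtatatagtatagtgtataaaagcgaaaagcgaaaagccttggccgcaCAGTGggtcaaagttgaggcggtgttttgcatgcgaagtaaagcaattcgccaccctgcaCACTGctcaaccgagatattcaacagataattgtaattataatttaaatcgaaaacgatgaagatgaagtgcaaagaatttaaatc
sls upstream: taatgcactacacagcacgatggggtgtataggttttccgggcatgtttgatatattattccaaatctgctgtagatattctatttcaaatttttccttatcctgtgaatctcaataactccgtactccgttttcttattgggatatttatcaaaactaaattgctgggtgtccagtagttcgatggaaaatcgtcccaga
tin upstream: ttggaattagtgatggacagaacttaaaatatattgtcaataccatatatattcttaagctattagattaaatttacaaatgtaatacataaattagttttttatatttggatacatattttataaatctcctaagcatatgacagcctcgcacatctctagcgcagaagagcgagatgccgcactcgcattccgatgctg

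CACTG lay in 18 of the 33 muscle gene sites (54.5%, interval 36.4 to 71.9), close to its share of 51.0% over all 3314 reproducible sites. Both mbc windows carry 1 copy, which extends to CACTGTG on the plus strand. The kirre window within CG32795 has 2 copies, of which 1 extends to CACTGTG on the minus strand, and the other kirre window has 1, which does not. The sls and tin windows hold none. CACTGTG lay in 5 of 33 muscle gene sites (15.2%, interval 5.11 to 31.9) and 9.54% of all sites, and CACTGA, another extension, in 2 of 33 (6.06%, interval 0.743 to 20.2) and 17.6% of all sites. The E-box, CANNTG, the short sequence read by Nau and other helix-loop-helix factors, lay in 21 of 33 (63.6%, interval 45.1 to 79.6) and 60.7% of all sites. A match to the longer site of MEF2 lay in 4 of 33 (12.1%, interval 3.40 to 28.2) and 12.3% of all sites. All motifs were counted on both strands, CACTGTG and CACTGA contain CACTG, and no CANNTG can hold CACTG. By each of these sequences the interval of the muscle gene sites includes the share over all sites.

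**Figure D1:**
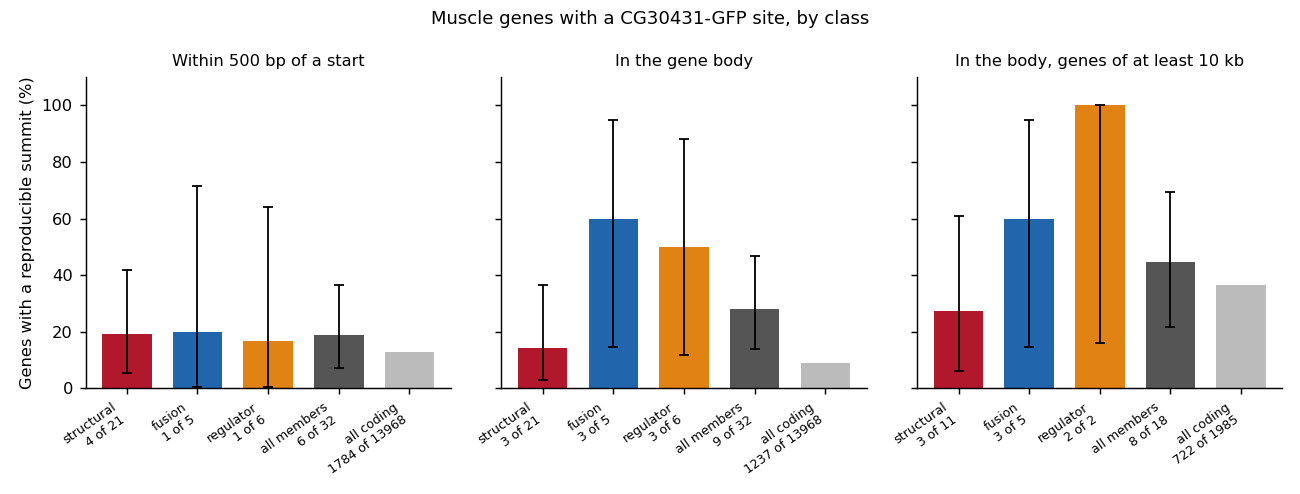
Share of genes (%) with a reproducible summit near a start (500 bp or less), in the gene body, and in the body among genes of at least 10 kb, for each class of muscle genes, all 32, and all protein-coding genes. Bars are shares, error bars exact 95% binomial intervals and the counts stand under each bar. At starts the 3 classes lie near each other, while in bodies the fusion genes (3 of 5) and regulators (3 of 6) stand above the structural genes (3 of 21), with wide intervals.

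At starts the shares of the classes were close to each other. The start sites belonged to 4 of 21 structural genes (19.0%, interval 5.45 to 41.9), 1 of 5 fusion genes (20.0%, interval 0.505 to 71.6) and 1 of 6 regulators (16.7%, interval 0.421 to 64.1). In bodies the counts were 3 of 21 structural genes (14.3%, interval 3.05 to 36.3), 3 of 5 fusion genes (60.0%, interval 14.7 to 94.7) and 3 of 6 regulators (50%, interval 11.8 to 88.2). The intervals overlap, and no test between classes was made. Fusion genes are the longest (median 56.6 kb), structural genes have a median of 11.4 kb, and regulators are the shortest (5.52 kb). Among genes of at least 10 kb a body site lay in 3 of 11 structural genes, 3 of 5 fusion genes and 2 of 2 regulators, or 8 of 18 muscle genes in all (44.4%, interval 21.5 to 69.2), against 36.4% of all protein-coding genes of that length. Under 10 kb it lay in 1 of 14 muscle genes (nau), against 4.3% of all. The interval of the longer muscle genes includes the share of all genes of that length. Per 100 kb of gene body there were 1.02 summits in structural genes, 3.79 in fusion genes and 4.08 in regulators, and 2.75 in all 32, against 2.08 over all protein-coding gene bodies. Without kirre the fusion genes had 2.54 and the remaining 31 genes 1.86. The class values rest on only 4 structural, 20 fusion and 4 regulator summits. Of the 4 structural summits, 2 are overlapping entries in Tm1, and of the 20 fusion summits 2 are overlapping entries in kirre.

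Among the sarcomere genes the strongest site lay upstream of sls, which encodes the titin-like protein Sallimus. Its summit (peak chr3L:2115778-2115972) was 276 bp upstream of the only annotated start, and the list values were 260 (pooled), 151 (replicate 1) and 103 (replicate 2). It ranked 435 in the pooled list, 431 in replicate 1 and 524 in replicate 2, among 30000 entries each. The 75.9 kb body of sls had no reproducible summit, although 11 pooled entries lie in it, the strongest with a signal of 30.0.

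Tm1, a tropomyosin gene with 8 annotated starts, had a pair of sites inside the gene, ahead of an internal start. The stronger (chr3R:15280877-15281240) was 312 bp upstream of that start, with 154 pooled, 94.0 in replicate 1 and 62.9 in replicate 2. The weaker (chr3R:15281082-15281445) was 107 bp upstream, with 99.2 pooled, 58.6 in replicate 1 and 40.5 in replicate 2. The entries overlap by 159 bp, and whether they are 1 region cannot be told apart from the lists. The neighbouring Tm2, which encodes another tropomyosin, had no site, the nearest lying 7.82 kb from a start.

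Act87E was the only 1 of the 4 muscle actin genes listed here with a site. Its summits lay 447 bp and 246 bp upstream of the nearest start (chr3R:13425354-13425717 and chr3R:13425555-13425918), with pooled signals of 110 and 78.5. These entries overlap by 163 bp, and in each replicate a single entry covers both summits, with 46.1 in replicate 1 and 63.7 in replicate 2. Act87E thus held 2 of the 3 muscle gene sites at which replicate 2 was the higher. At Act57B, Act79B and Act88F the nearest reproducible summit was 37.3, 30.5 and 11.9 kb from a start.

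Actn, the alpha-actinin gene of the Z-disc, had 1 weak site inside the gene, 357 bp upstream of an internal start (chrX:2036794-2037157). It had 83.3 pooled, 46.8 in replicate 1 and 32.9 in replicate 2. Unc-89, annotated as Obsc and encoding the M-line protein obscurin, had the weakest of the 33 sites (72.9 pooled, 39.7 in replicate 1 and 27.5 in replicate 2). It is the only muscle gene site in coding sequence, where 20 of all 3314 summits (0.604%) lie, and its window had the highest GC content of the 33 (57.2%, against a median of 34.3%).

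The other 16 structural genes had no reproducible site. They include Mhc (muscle myosin heavy chain), both myosin light chain genes Mlc1 and Mlc2, the troponin genes up and wupA, Prm (paramyosin), bt (the titin-like projectin), Strn-Mlck, the LIM protein genes Mlp60A and Mlp84B, and the Z-disc genes Zasp52 and Zasp66. The nearest summit to an Mhc start was 45.7 kb away and to a bt start 82.0 kb. Over the 20 muscle genes with no site this distance ran from 1.97 to 82.0 kb, with a median of 11.0 kb. Over all 32 its median was 4.39 kb, and over all protein-coding genes on chromosomes with sites 11.3 kb. The distance is to whichever start of a gene lies nearest to a summit. The muscle genes have more starts and are longer, and these medians were not matched for either.

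**Figure D2:**
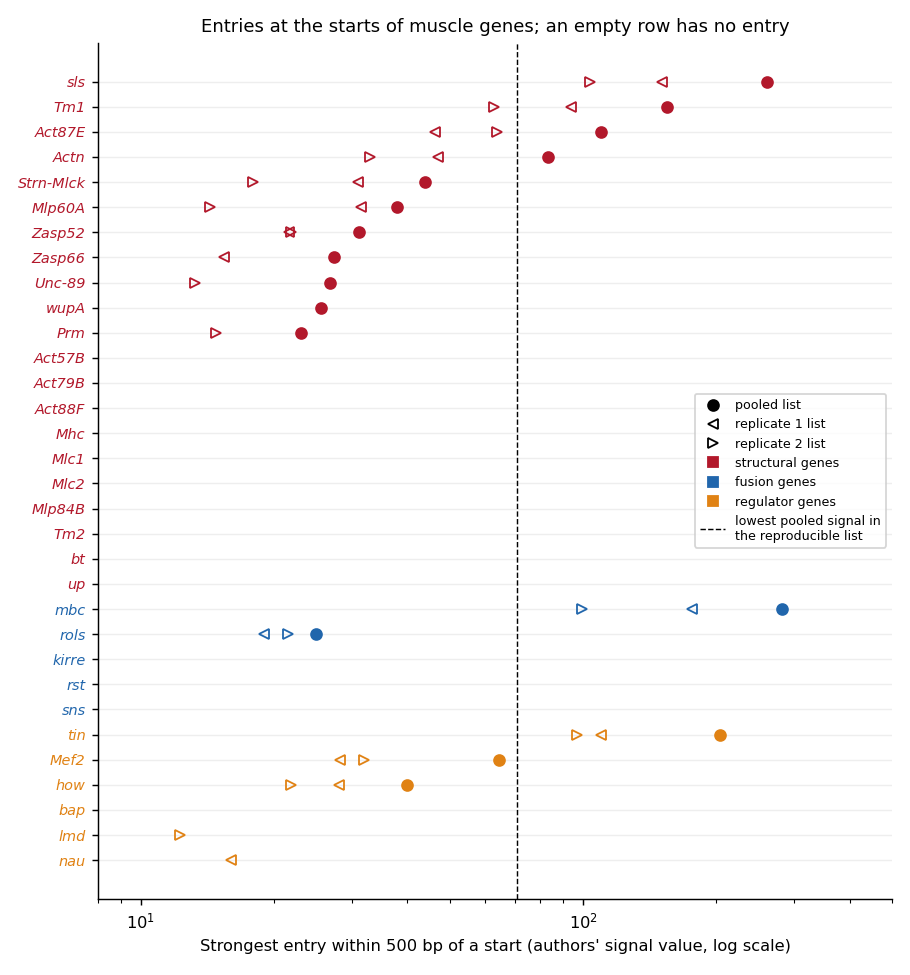
Signal value (authors' scale, log axis) of the strongest entry within 500 bp of a start of each muscle gene, in the pooled list (filled circles) and in the lists of replicates 1 and 2 (open triangles), coloured by class. The dashed line is the lowest pooled signal of the reproducible list, 70.8: 6 genes lie above it in the pooled list, Mef2 lies just below at 64.5, and an empty row marks a gene with no entry in any list.

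In the fusion class mbc, which encodes the Rac activator Myoblast city, had sites at its start and in its intron, 3 in all within 2668 bp. The strongest (chr3R:23782822-23783035) was 1179 bp into the gene, with 327 pooled, 182 in replicate 1 and 136 in replicate 2. A second intronic site 2453 bp into the gene (chr3R:23784036-23784399) had 174 pooled, 119 in replicate 1 and 59.3 in replicate 2. The site 215 bp upstream of the start (chr3R:23781470-23781674) had 281 pooled, 176 in replicate 1 and 99.5 in replicate 2. This last summit lay nearer to another gene: it was 71 bp inside Nup98-96, in its 5' UTR, a nucleoporin gene that begins beside mbc. It cannot be assigned to either gene from its position.

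Kirre, the founder-cell adhesion gene, had no site at any of its 6 starts and 16 in its body. It is 394 kb long on the X chromosome, 37.9% of the summed length of the 32 genes, and held 57.1% of their 28 body summits. Only 2 protein-coding genes of the annotation, kirre among them, had as many as 16, with overlapping entries counted apart. Per 100 kb it had 4.06. Their pooled signals ran from 77.2 to 411 with a median of 111.

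The strongest kirre site (chrX:3097104-3097341) was intronic, 2317 bp upstream of an internal start, with 411 pooled, 229 in replicate 1 and 182 in replicate 2. It was the strongest of all 33 muscle gene sites and ranked 162 of 3314. A weaker site with 96.9 pooled lay beside it, 3063 bp upstream of the same start. Another 3 sites lay within 741 bp of each other in CG32795, a gene nested in a kirre intron, with pooled signals of 186, 175 and 113. For the strongest of these the values were 99.9 in replicate 1 and 82.5 in replicate 2. Those with 186 and 113 are overlapping entries, and whether they are 1 region cannot be told from the lists. With overlapping entries merged, the 33 muscle gene sites become 30.

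Of the 16 sites 3 lay within 500 bp of a start of another gene, 2 at Syx4 (155 and 354 bp upstream, pooled 143 and 132) and 1 at CG3588 (162 bp upstream, pooled 82.7). Syx4 encodes a syntaxin of membrane traffic. These summits are counted for kirre by position, although another gene begins nearer. The same holds for the 3 sites in CG32795, which lay 1777 to 2518 bp from a start of that gene. It also holds for the sites nearest to CG4116, at 914 bp (109 pooled) and 21333 bp (155 pooled). The CG3588 site was higher in replicate 2 (48.2) than in replicate 1 (32.3).

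The remaining 8 kirre sites lay in introns, none within 500 bp of any start. Along the gene their pooled signals were 97.8, 96.1, 88.5, 98.8, 77.2, 136, 155 and 109. In replicate 1 these sites lay between 43.8 and 88.2, and in replicate 2 between 31.9 and 70.3. CACTG lay in the windows of 9 of all 16 kirre sites.

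The other fusion genes differed among themselves. Rst, the paralogue of kirre that lies nested within it, had no site, nor did sns, whose 57.6 kb body held 18 pooled entries with a highest signal of 45.7. Rols, the adaptor gene, had 2 weak intronic sites, 1878 bp and 7837 bp into the gene, with 91.7 and 94.6 pooled, 61.6 and 60.4 in replicate 1 and 33.7 at both in replicate 2. The second of these was 548 bp upstream of an internal start, so it fell just outside the window of 500 bp, while the site of Act87E at 447 bp fell just inside.

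**Figure D3:**
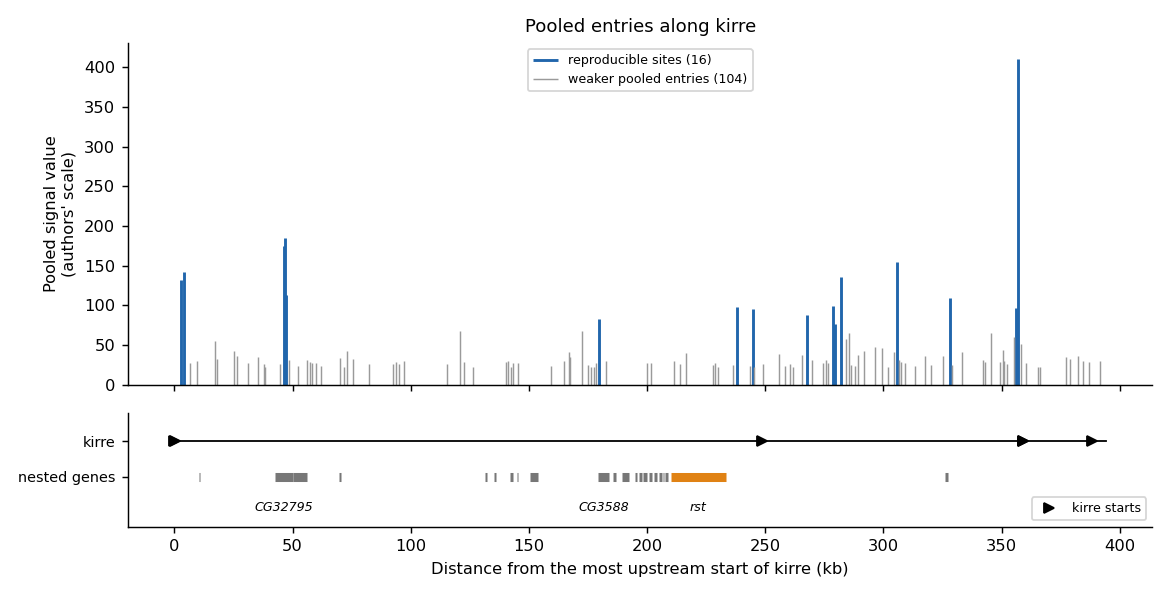
Pooled signal value (authors' scale) of the 120 pooled entries along kirre, against distance from its most upstream start (kb). Blue lines are the 16 reproducible sites and grey lines the weaker entries; below are the kirre starts and the genes nested in it. The tallest line stands at 357 kb, just ahead of an internal start, 3 more lie together in CG32795 near 47 kb, and the body of rst holds none of the 16.

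Among the regulators tin, the homeobox gene of heart and visceral muscle, had the only site at a start. Its summit (chr3R:21378587-21378950) was 208 bp upstream, with 203 pooled, 110 in replicate 1 and 96.6 in replicate 2. No other gene start was nearer. Bap, the visceral mesoderm homeobox gene close to it, had no entry in any list at its start or in its body. Together with Mlc2 it was 1 of only 2 muscle genes with none at all.

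Mef2, the MADS-box factor of muscle differentiation, had 2 sites in its 45.4 kb body on chromosome 2R. The stronger (chr2R:9942891-9943055) lay in a 5' UTR exon, 1798 bp downstream of an annotated start, with 197 pooled, 138 in replicate 1 and 55.8 in replicate 2. Replicate 1 was 2.46 times replicate 2 here, the highest ratio at a muscle gene site. The other was intronic (chr2R:9935838-9936201), with 117 pooled, 75.7 in replicate 1 and 41.9 in replicate 2. At its starts Mef2 had 4 weaker pooled entries, the strongest at 64.5, which ranked 3721 and so missed the reproducible list.

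Nau had 1 intronic site 4284 bp into the gene (chr3R:23713891-23714254), with 118 pooled, 68.9 in replicate 1 and 49.6 in replicate 2; the start of CG10300 lay nearer, at 2546 bp. The site of how, 7092 bp into the gene in an intron (chr3R:22049101-22049464), had 146 pooled, 105 in replicate 1 and 46.9 in replicate 2. Lmd, the zinc-finger factor of fusion-competent myoblasts, had none, but 1 lay 1974 bp upstream of its start between genes, with 84.4 pooled, 42.7 in replicate 1 and 37.3 in replicate 2.

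**Figure D4:**
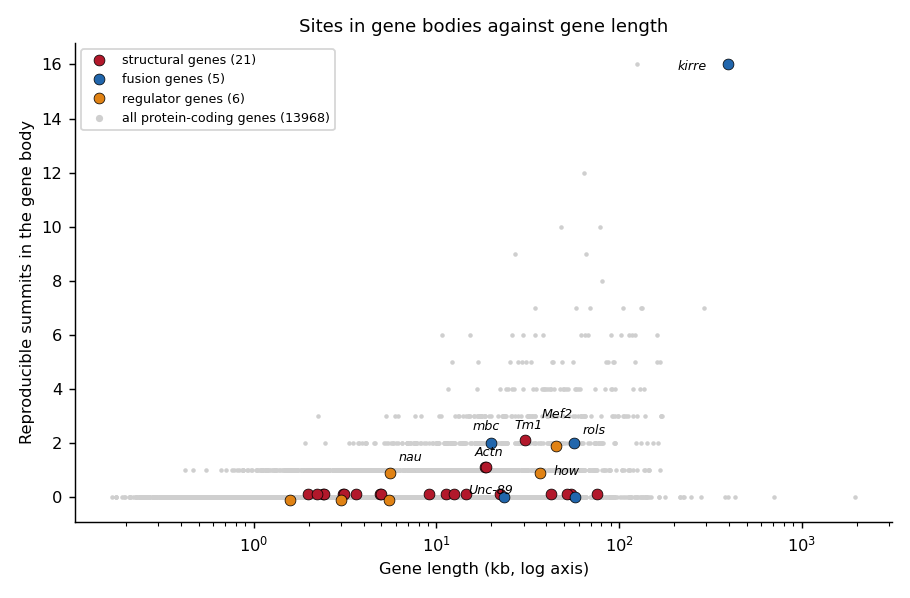
Number of reproducible summits in the gene body against gene length (kb, log axis) for the 32 muscle genes, coloured by class, and all 13968 protein-coding genes (grey). Points of the classes are shifted slightly up or down so that they do not hide each other. Kirre, with 16 summits in 394 kb, stands far above the other muscle genes, which have 0 to 2.

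All 8 summits at muscle gene starts lay upstream of the nearest start of that gene, from 107 to 447 bp away with a median of 261 bp. Only the weaker Tm1 site was within 200 bp, so that with that window 1 of 32 genes had a site, where 8.25% of all protein-coding genes did. Their median pooled signal was 132, and that of the 25 sites away from the starts of these genes was 117. Over all 33 sites the median was 117, against 121 for the reproducible list, and 6 of 33 (18.2%) ranked among its 828 strongest entries. By class the median was 99.2 over 7 structural sites, 113 over 21 fusion sites and 146 over 5 regulator sites.

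Most muscle gene sites ranked high in both replicates, as did most of all reproducible sites. Among the 3314 strongest entries of each replicate lay 30 of 33 (90.9%), against 78.7% of all reproducible sites, a list that was itself derived from the replicates. No interval was calculated for this share. Replicate 1 was higher at 30 sites and replicate 2 at 3, both Act87E summits and the CG3588 site in kirre. The Act87E summits share a single entry in each replicate. The ratio of replicate 1 to replicate 2 ran from 0.671 to 2.46, with a median of 1.45 at muscle gene sites, against 1.34 over the 3267 reproducible sites with a value in both. The depths behind the replicate lists are unknown, so their part in this ratio was not tested.

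**Figure D5:**
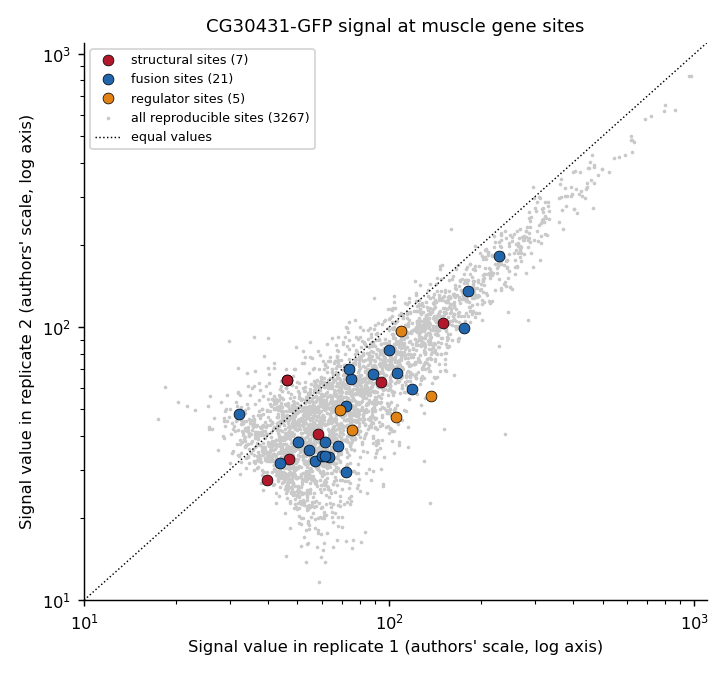
Signal value in replicate 2 against replicate 1 (authors' scale, log axes) at the 33 muscle gene sites, coloured by class, and at the reproducible sites with a value in both replicates (grey). Points lie along the cloud of all sites and mostly below the dotted line of equal values, with 30 of 33 higher in replicate 1.

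Entries of the longer lists, strong ones included, were common at muscle gene starts, as they were at all genes. In the pooled list 16 of 32 genes had an entry within 500 bp of a start (50%, interval 31.9 to 68.1), against 36.0% of all protein-coding genes. The counts were 14 of 32 (43.8%) in replicate 1, where 37.7% of all genes had one, and 15 of 32 (46.9%) in replicate 2, where 35.2% had one. In all 3 lists it was 12 of 32 (37.5%), against 24.2% of all protein-coding genes. The muscle genes have more starts, and these shares were not split by number of starts. The pooled count of 16 includes the 6 genes with a reproducible site at a start. The 10 genes with only weaker pooled entries had values from 23.0 at Prm to 64.5 at Mef2. At Strn-Mlck, a myosin light chain kinase-like gene with 7 starts, the strongest was 44.0, and at how 40.0. Mlp60A had 37.8, Zasp52 31.1, Zasp66 27.3, Unc-89 26.7, wupA 25.5 and rols 24.9. These values lie well under the lowest pooled signal of the reproducible list (70.8), whereas that of Mef2 lies just under it. Nau had a start entry in replicate 1 alone (16.0) and lmd in replicate 2 alone (12.3). No list had an entry at a start of 14 genes, 10 of them structural (Mhc, Act57B, Act88F, Act79B, up, Tm2, bt, Mlc1, Mlc2 and Mlp84B), 3 fusion genes (kirre, rst and sns) and 1 regulator (bap).

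Some muscle genes had a site in the flank rather than at the start. Within 5 kb of a start, a distance chosen after the values had been seen, 17 of 32 had a summit (53.1%, interval 34.7 to 70.9), against 30.7% of all protein-coding genes. This count includes the 6 genes with a site at a start, and summits inside genes as at kirre, nau and rols. The muscle genes are longer and have more starts, and the share of all genes was not split by either. By class the count was 8 of 21 structural genes, 4 of 5 fusion genes and 5 of 6 regulators. The strongest of these flanking sites, 1074 bp upstream of a Mef2 start, had 697 pooled, 397 in replicate 1 and 306 in replicate 2, and lay 146 bp from the start of Pal1. That near Strn-Mlck (590 pooled) lay 87 bp from the start of CG8320, and that near Tm1 (384 pooled, 240 in replicate 1 and 40.7 in replicate 2) lay 135 bp from the start of CG4338. The sites nearest to a muscle gene rather than to a neighbour were those of lmd, how (73.7 pooled), rst (97.8, already counted above as 1 of the 16 in kirre) and Act87E (94.9).

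A further list of 58 muscle genes, for the sarcomere, adhesion, fusion and mesoderm development, had the following shares. A site lay at a start in 11 of 58 (19.0%), against 12.8% of all protein-coding genes, and in the body in 15 of 58 (25.9%), against 8.86%. For this list no intervals were calculated, and the share at starts was not split by number of starts. Among genes of at least 10 kb a body site lay in 12 of 25 (48%), against 36.4% of all protein-coding genes of that length. By class the starts were 5 of 20 structural genes, 2 of 12 fusion genes and 4 of 26 regulators. Body sites lay in 7 of 20 structural genes (35%), 2 of 12 fusion genes (16.7%) and 6 of 26 regulators (23.1%). In genes of at least 10 kb the counts were 7 of 9, 1 of 3 and 4 of 13, in the same order. Structural genes thus had the highest body share in this list, whereas they had the lowest among the muscle genes described above. The strongest start sites were at chn and org-1. Chn, a zinc-finger repressor better known from sensory neurons, had 549 pooled, 321 in replicate 1 and 242 in replicate 2. Org-1, a T-box gene of muscle identity, had 410 pooled, 243 and 164. Pax, the paxillin gene of muscle attachment, had 353 pooled, 191 and 162. Msp300, a nesprin gene of muscle nuclei, had 279 pooled, and stumps, an adaptor of the FGF receptor in mesoderm, had 238.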

How the data were processed

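CG30431-GFP was mapped by chromatin immunoprecipitation and sequencing in whole embryos, with 2 biological replicates of 1 group. Fragments were 200 to 800 bp long, per the labels. The deposited files are peak lists. Per the readme that was deposited, every replicate has a list made from its own reads set against a control. A pooled list was made from the reads of both, and thresholding on the irreproducible discovery rate over these 3 lists gave the reproducible list. The threshold, aligner, caller and versions are not stated in the sources at hand. Entries carry a signal value, whose scale the authors do not state, and a deposited −log10 q-value, from 2.35 to 3.57 in the reproducible list. The signal is the authors' value for each peak and was used to describe and rank peaks within a list. Pooled and replicate values of a peak stand together in the text, although the depths of the lists, which are unknown, may differ.

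Gene models were Ensembl release 115 (18277 genes with 23694 starts). Lists on dm3 were not used here. Of the 32 members 31 matched by symbol and Unc-89 matched as Obsc. For each replicate a site took the value of its strongest entry in which the summit fell. Named were all members with a site, with their sites, the other members by their weaker entries or as counts, and the 5 other muscle genes with the strongest start sites. That further list had 59 names, of which 2 matched through an older symbol and 1 was a member. The members, lists and CACTG were chosen with earlier results of these data known. Alternatives changed the window, the overlap, the threshold, the starts, the matching and the replicates used. Counting was tested on simulated summits. Python 3.11.15, numpy 2.4.6, pandas 2.3.3, scipy 1.17.1 and matplotlib 3.10.9 were used.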

Additional observations from a re-analysis of the deposited data

How the results depend on the processing

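Each count was repeated with 1 choice changed. Where it was calculated, the value over all protein-coding genes under the same choice stands in brackets. Of 32 genes, 6 had a site at a start (12.8%). This became 1 with a window of 200 bp (8.25%), 7 with 1000 bp (15.1%) or any overlap of the peak (13.8%), and 4 with the 1657 strongest entries of the list (7.64%) or the most upstream start of each gene (11.0%). With the strongest entries of 1 replicate alone it was 6 to 7 (12.6% and 12.8%), the seventh being Mef2 in replicate 2. The count of 9 genes with a body site (8.86%) became 5 among the 1657 strongest entries (5.25%), 7 without sites within 500 bp of any start (5.55%) and 11 by any overlap (13.7%). It was 8 with replicate 1 alone (8.86%), with replicate 2 alone (9.03%), and without kirre. Summits per 100 kb, 2.75 (2.08 over all protein-coding genes), became 1.18 among those strongest entries (1.04) and 2.16 without sites near starts (1.39). They were 1.86 without kirre and 2.56 with overlapping entries merged (2.00), both tried after seeing the data, and 2.75 with either replicate alone. Entries of the pooled list lay at starts of 16 genes (36.0%). This became 7 with a window of 200 bp (21.5%) and 11 in the stronger part of that list (26.3%). CACTG lay in 24.2% of muscle gene sites within 50 bp of the summit, against 24.1% of all sites, and in 50% with overlapping entries merged, against 51.3% of all sites. The median signal of the sites was 72.3 in replicate 1 and 49.6 in replicate 2, and 73.7 and 55.8 by the strongest overlapping entry. Narrower windows and shorter lists hold fewer entries by construction. No paired analysis was possible because the series has 1 group. The depth of the libraries is unknown, so a gene with no site cannot be told from one whose site was too weak to be listed.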
